A study of Mus musculus with 2 samples.

Results

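*Lyz2*, *Plbd1* and *Wfdc17*, 3 of the 18049 genes listed in the deposited expression data, were chosen because they were among the lowest genes in CD301b-hi conventional type 2 dendritic cells (cDC2s) of papain-immunized over naive mice. That papain over naive ratio is therefore given as a description and with no test. The data are CITEseq, in which the mRNA of single cells and the binding of 12 barcoded antibodies are counted together, and hold 1 library of untreated B6 mice and 1 library of B6 mice given ovalbumin (OVA) with the protease allergen papain in the footpads 1 day earlier. Both libraries hold live MHCIIhi CD11c+ B220- cells sorted from lymph nodes, a gate that takes in migratory dendritic cells (DCs), and no allele or transgene separates them. The study's methods describe popliteal nodes for the immunized mice and a pool of skin-draining nodes for the untreated ones, while the labels name both kinds of node for either library, so that immunization and node site cannot be told apart. Cells were grouped by the authors' own class, from the antibodies, into Langerhans cells (LCs), cDC1s and cDC2s with low (CD301b-lo), intermediate (CD301b-int) or high (CD301b-hi) surface CD301b, a lectin of cDC2s, and cDC2s also by the authors' mRNA clusters, 7 in the naive library (1.1 to 1.7) and 9 in the papain library (2.1 to 2.9). With 1 library for each condition, cells are not replicates, and all 95% intervals cover counting error only.

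The 3 genes belong to the equipment of phagocytes. *Lyz2* encodes lysozyme 2, the secreted and granule enzyme of myeloid cells that cleaves the peptidoglycan of bacterial cell walls. *Plbd1* encodes a phospholipase B domain protein that is found in granules and lysosomes and removes fatty acids from phospholipids. *Wfdc17* encodes a small secreted protein with a WAP domain, a fold shared with inhibitors of serine proteases, and was described in activated macrophages and microglia. DCs that mature in the periphery and travel to a lymph node through CCR7 as a rule turn from uptake and degradation to antigen presentation and migration.

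*Lyz2* lies at chr10:117277541-117282272, *Plbd1* at chr6:136612071-136662303 and *Wfdc17* at chr11:83704056-83706269, all annotated as protein-coding genes. The 250 bases upstream of the annotated start of each gene are shown because the 3 genes were high in the same cells, together with those of *Lyz1*, the neighbouring second lysozyme gene of the mouse, whose pattern over the mRNA clusters was the most like that of *Lyz2*. The sequences are RefSeq's for GRCm38.p6, the assembly that the labels name mm10, and are written 5′ to 3′ on the strand of the gene, at chr10:117282273-117282522 (minus strand) for *Lyz2*, chr6:136661894-136662143 (minus strand) for *Plbd1*, chr11:83703806-83704055 (plus strand) for *Wfdc17* and chr10:117292869-117293118 (minus strand) for *Lyz1*. The start that the table gives for *Plbd1* lies inside the annotated span of the gene. Capitals mark the motifs GAGGAA and GGAAGT, both of the kind bound by PU.1 and other ETS factors of myeloid cells, on either strand.
Lyz2: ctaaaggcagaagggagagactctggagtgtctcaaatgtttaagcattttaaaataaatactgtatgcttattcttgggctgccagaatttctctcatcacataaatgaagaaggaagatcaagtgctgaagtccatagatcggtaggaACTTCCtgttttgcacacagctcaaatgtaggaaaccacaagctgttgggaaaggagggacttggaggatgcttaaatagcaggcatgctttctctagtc
Plbd1: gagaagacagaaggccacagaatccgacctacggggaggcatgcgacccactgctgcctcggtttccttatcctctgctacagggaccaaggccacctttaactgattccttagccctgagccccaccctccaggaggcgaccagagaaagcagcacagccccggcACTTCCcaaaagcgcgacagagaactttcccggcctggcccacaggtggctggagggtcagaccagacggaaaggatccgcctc
Wfdc17: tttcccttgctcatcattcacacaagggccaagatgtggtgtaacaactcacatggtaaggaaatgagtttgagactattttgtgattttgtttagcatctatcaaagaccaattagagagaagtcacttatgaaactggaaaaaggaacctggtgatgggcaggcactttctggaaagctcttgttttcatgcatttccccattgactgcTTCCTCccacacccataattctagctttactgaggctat
Lyz1: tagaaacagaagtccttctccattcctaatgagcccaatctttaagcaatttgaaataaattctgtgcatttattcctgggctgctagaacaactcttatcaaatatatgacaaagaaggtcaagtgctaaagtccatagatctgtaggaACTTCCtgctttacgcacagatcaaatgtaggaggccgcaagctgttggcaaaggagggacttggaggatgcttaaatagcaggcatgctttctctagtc
The reverse complement of GGAAGT began at base -100 from the start in *Lyz2* and *Lyz1* and at base -84 in *Plbd1*, and the reverse complement of GAGGAA began at base -39 in *Wfdc17*. Of 32851 RefSeq windows of the same length, 19.7% held GGAAGT and 23.3% held GAGGAA on either strand, so that these short motifs are common. TATAAA was also searched on both strands, was found in none of the 4 windows and in 12.4% of all windows. An alignment of the *Lyz2* and *Lyz1* windows had 200 identical bases in 252 columns (79.4%), against 127 in 266 (47.7%) for *Lyz2* and *Plbd1* and 125 in 266 (47.0%) for *Lyz2* and *Wfdc17*. Because *Lyz1* and *Lyz2* are near copies of each other, reads that fit both could be split or dropped in counting, and the level of either is uncertain to that extent.

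Of the naive cells 3042 and of the papain cells 7306 had a class, at a median of 13979.5 UMIs (range 3637 to 50632) and 14945 UMIs (2682 to 56723), where a UMI is 1 counted mRNA molecule. A level (CPM) is the sum of a gene's UMIs in a group's cells for every 1000000 UMIs of those cells. The libraries shared 2 cell barcodes, and no doublets were called or removed here. In sums of this kind, fewer cells with a transcript and less transcript per cell cannot be told apart, so the number of UMIs in each cell is given further on.

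*Lyz2* was high in naive cDC2s and low in papain cDC2s. In the naive library its level was 650.4 CPM (interval 634 to 667) in CD301b-lo, 672 (656 to 688) in CD301b-int and 552 (539 to 566) in CD301b-hi cDC2s. In the papain library it was 79.4 CPM (75.4 to 83.7) in CD301b-lo, 7.79 (6.81 to 8.87) in CD301b-int and 13.7 (12.7 to 14.7) in CD301b-hi cDC2s. Every naive cDC2 class thus lay above every papain one, and the papain CD301b-lo class stood above the other two. Outside cDC2s the naive level was 108 CPM (101 to 115) in cDC1s and 26.5 (22.3 to 31.3) in LCs, and the papain level was 8.46 (5.53 to 12.4) in cDC1s and 36.6 (33.9 to 39.5) in LCs. LCs were the class in which the papain level was the higher one.

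*Plbd1* had the same order of libraries in all 5 classes. Its naive level was 118 CPM (111 to 125) in CD301b-lo, 76.7 (71.5 to 82.3) in CD301b-int and 50.004 (46.0 to 54.3) in CD301b-hi cDC2s, and so fell from class to class as CD301b rose. Its papain level was 9.75 CPM (8.36 to 11.3) in CD301b-lo, 2.82 (2.25 to 3.50) in CD301b-int and 2.79 (2.35 to 3.29) in CD301b-hi cDC2s. The last 2 of these did not differ beyond counting error. The level in cDC1s was 22.9 CPM (19.9 to 26.1) in naive and 16.9 (12.6 to 22.2) in papain cells, with overlapping intervals, and that in LCs was 8.84 (6.50 to 11.8) and 1.69 (1.15 to 2.40).

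*Wfdc17* was lower in papain cDC2s, but higher in papain cDC1s and LCs. Its naive level was 81.1 CPM (75.4 to 87.1) in CD301b-lo, 98.0 (92.1 to 104) in CD301b-int and 70.0 (65.2 to 75.0) in CD301b-hi cDC2s, and its papain level was 19.8 (17.8 to 21.9), 12.3 (11.1 to 13.6) and 10.0 (9.19 to 10.96) in the same order. In cDC1s it went from 12.3 CPM (10.2 to 14.8) in naive to 22.5 (17.5 to 28.4) in papain cells, and in LCs from 5.08 (3.35 to 7.39) to 12.8 (11.2 to 14.6). These intervals did not overlap in either class, but the difference from cDC2s was not tested.

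**Figure D1:**
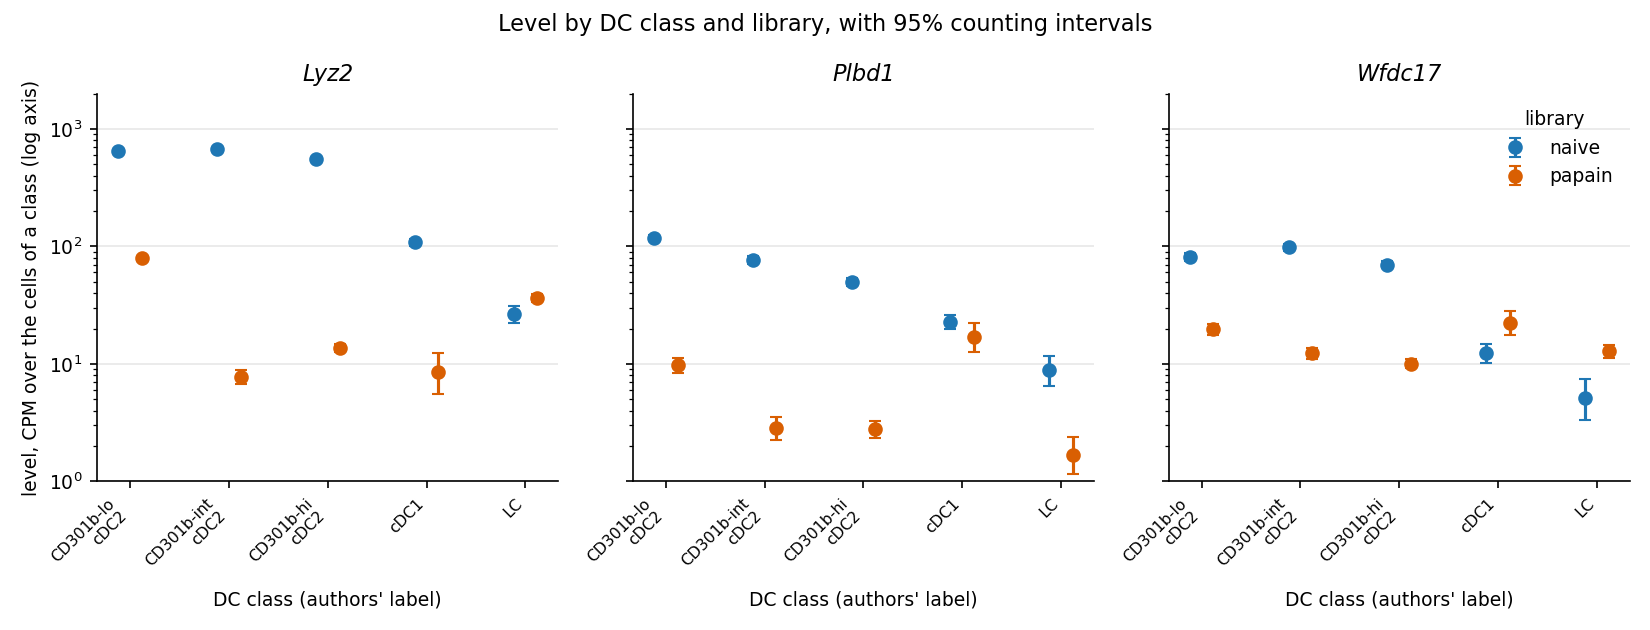
Level of each gene in CPM (log axis) in the 5 DC classes, naive in blue and papain in orange; points are sums over the cells of 1 library and bars are exact 95% Poisson intervals. Naive cDC2s lie above papain cDC2s for all 3 genes, whereas *Lyz2* in LCs (26.5 and 36.6 CPM) and *Wfdc17* in cDC1s (12.3 and 22.5 CPM) and LCs (5.08 and 12.8 CPM) run the other way.

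In CD301b-hi cDC2s, the ratios that chose the genes were a log2 of -5.34 (-5.45 to -5.22) for *Lyz2*, -4.16 (-4.44 to -3.90) for *Plbd1* and -2.80 (-2.96 to -2.64) for *Wfdc17*, which corresponds to 40.4-, 17.9- and 6.97-fold lower levels. Among 2756 genes with at least 50 CPM in 1 of the libraries, 96 (3.48%) were at least 2-fold lower in papain cells, and *Lyz2*, *Plbd1* and *Wfdc17* held ranks 2, 3 and 4 from the lowest. Rank 1 was *Mgl2*, the gene of CD301b itself, with 56.1 CPM in naive and 1.21 in papain CD301b-hi cDC2s (-5.54). Just above the 3 genes came *Clec7a*, which encodes the fungal receptor Dectin-1 (-2.56), and *Gm2a*, a lysosomal lipid-transfer protein (-2.55). At 50.004 CPM in naive cells, *Plbd1* stood at the limit for entering this order.

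The same contrast in the other classes uses the same libraries and is no independent support. In CD301b-lo cDC2s, where 4.66% of 2789 genes were at least 2-fold lower, the log2 ratio was -3.03 (-3.12 to -2.95) for *Lyz2*, -3.60 (-3.84 to -3.37) for *Plbd1* and -2.04 (-2.22 to -1.85) for *Wfdc17*. In CD301b-int cDC2s, where 3.84% of 2762 genes were, it was -6.43 (-6.63 to -6.24), -4.76 (-5.11 to -4.44) and -3.00 (-3.17 to -2.82). All 3 genes were thus more than 2-fold lower in every cDC2 class. They entered these counts through their naive level alone, except *Lyz2* in CD301b-lo cDC2s, where the papain level (79.4 CPM) also passed 50 CPM. In cDC1s, where 3.3% of 2637 genes were, *Lyz2* was the only one to reach 50 CPM, with a ratio of -3.67 (-4.29 to -3.11), and in LCs, where 2.04% of 2747 genes were, none of the 3 did. In the higher direction, where no member was counted, 3.41% of genes passed in CD301b-lo, 3.08% in CD301b-int and 2.43% in CD301b-hi cDC2s, 2.46% in cDC1s and 5.31% in LCs.

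Most cells of either library held no UMI of these genes, and a small number of cells held most of them. A *Lyz2* UMI was found in 24.0% of naive CD301b-lo, 21.1% of CD301b-int and 19.5% of CD301b-hi cDC2s, against 4.90%, 7.28% and 8.37% in the papain library. For *Plbd1* these shares were 24.9%, 15.3% and 10.9% against 6.94%, 3.34% and 2.80%. For *Wfdc17* they were 16.7%, 15.02% and 16.3% against 9.93%, 11.1% and 10.6%, so that the shares with *Wfdc17* were closer between the libraries than its levels. Counting cells with at least 2 UMIs in place of 1 gave 16.1%, 12.6% and 9.05% against 1.497%, 1.92% and 2.87% for *Lyz2*. Median depths ran from 11351 to 16181 UMIs over these 6 groups. With each cell thinned to 8392 UMIs, which left out 55 to 264 shallower cells of a group, the CD301b-hi share went from 14.3% to 4.95% for *Lyz2*, from 8.65% to 1.51% for *Plbd1* and from 11.7% to 5.92% for *Wfdc17*.

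The concentration in few cells was strongest for *Lyz2*. The 1% of naive cells with the most *Lyz2* UMIs held 62.0% of all 20423, and 21 of the 3042 cells held 50% of them. In the papain library 6 of 7306 cells held 50% of the 3053 *Lyz2* UMIs. A single cell held 623 of the 1434 *Lyz2* UMIs of papain CD301b-lo cDC2s, and another held 310 of the 672 in papain LCs. The papain level of *Lyz2* in these 2 classes thus rests on few cells. Without the 1% highest cells of each class and library, it was 3.64 CPM in CD301b-lo cDC2s and 5.45 in LCs. *Wfdc17* was spread more evenly in papain than in naive cells, since 174 papain cells but 30 naive cells held 50% of its UMIs (1530 and 2704 in all). For *Plbd1*, 74 naive and 54 papain cells held 50% of 2718 and 483 UMIs.

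The cells with many UMIs lay mainly in 1 of the authors' mRNA clusters, naive cluster 1.5, which was singled out after its levels were seen. It held 246 of the 2024 naive cDC2s (12.2%). Its *Lyz2* level was 3763 CPM (3709 to 3818), while the other 6 naive clusters ranged from 9.96 (cluster 1.2) to 147 (cluster 1.7) and the 9 papain clusters from 4.58 (cluster 2.7) to 64.6 (cluster 2.4). Its *Plbd1* level was 466 CPM (447 to 485), against 2.81 to 33.3 in the other naive and 1.04 to 18.1 in the papain clusters. Its *Wfdc17* level was 406 CPM (389 to 425), against 1.17 to 48.5 in the other naive and 1.83 to 40.2 in the papain clusters. For each gene, cluster 1.5 stood above all 15 other clusters by more than counting error. Because clusters were made from mRNA, in which these genes take part, this order is a description of where the transcripts were.

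The order of the remaining clusters differed between the genes. *Wfdc17* had its next levels in naive clusters 1.6 (48.5 CPM, 27.7 to 78.7) and 1.1 (48.4, 44.3 to 52.8), followed by papain cluster 2.4 (40.2, 35.4 to 45.5), and the intervals of these neighbours overlapped. Of the 536 cells of cluster 1.1, 23.1% held a *Wfdc17* UMI, and 359 of its 514 UMIs lay in CD301b-hi cells, of which 176 were in a single cell. *Plbd1* was next in cluster 1.6 (33.3 CPM, 16.6 to 59.6) and papain cluster 2.9 (18.1, 13.4 to 24.0). Cluster 2.9 also had the highest share of cells with a *Lyz2* UMI (14.8%) and with a *Plbd1* UMI (12.04%) of the papain clusters. *Lyz2* in papain cluster 2.4 came from 15 of 671 cells, 1 of which held 286 of 405 UMIs.

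**Figure D2:**
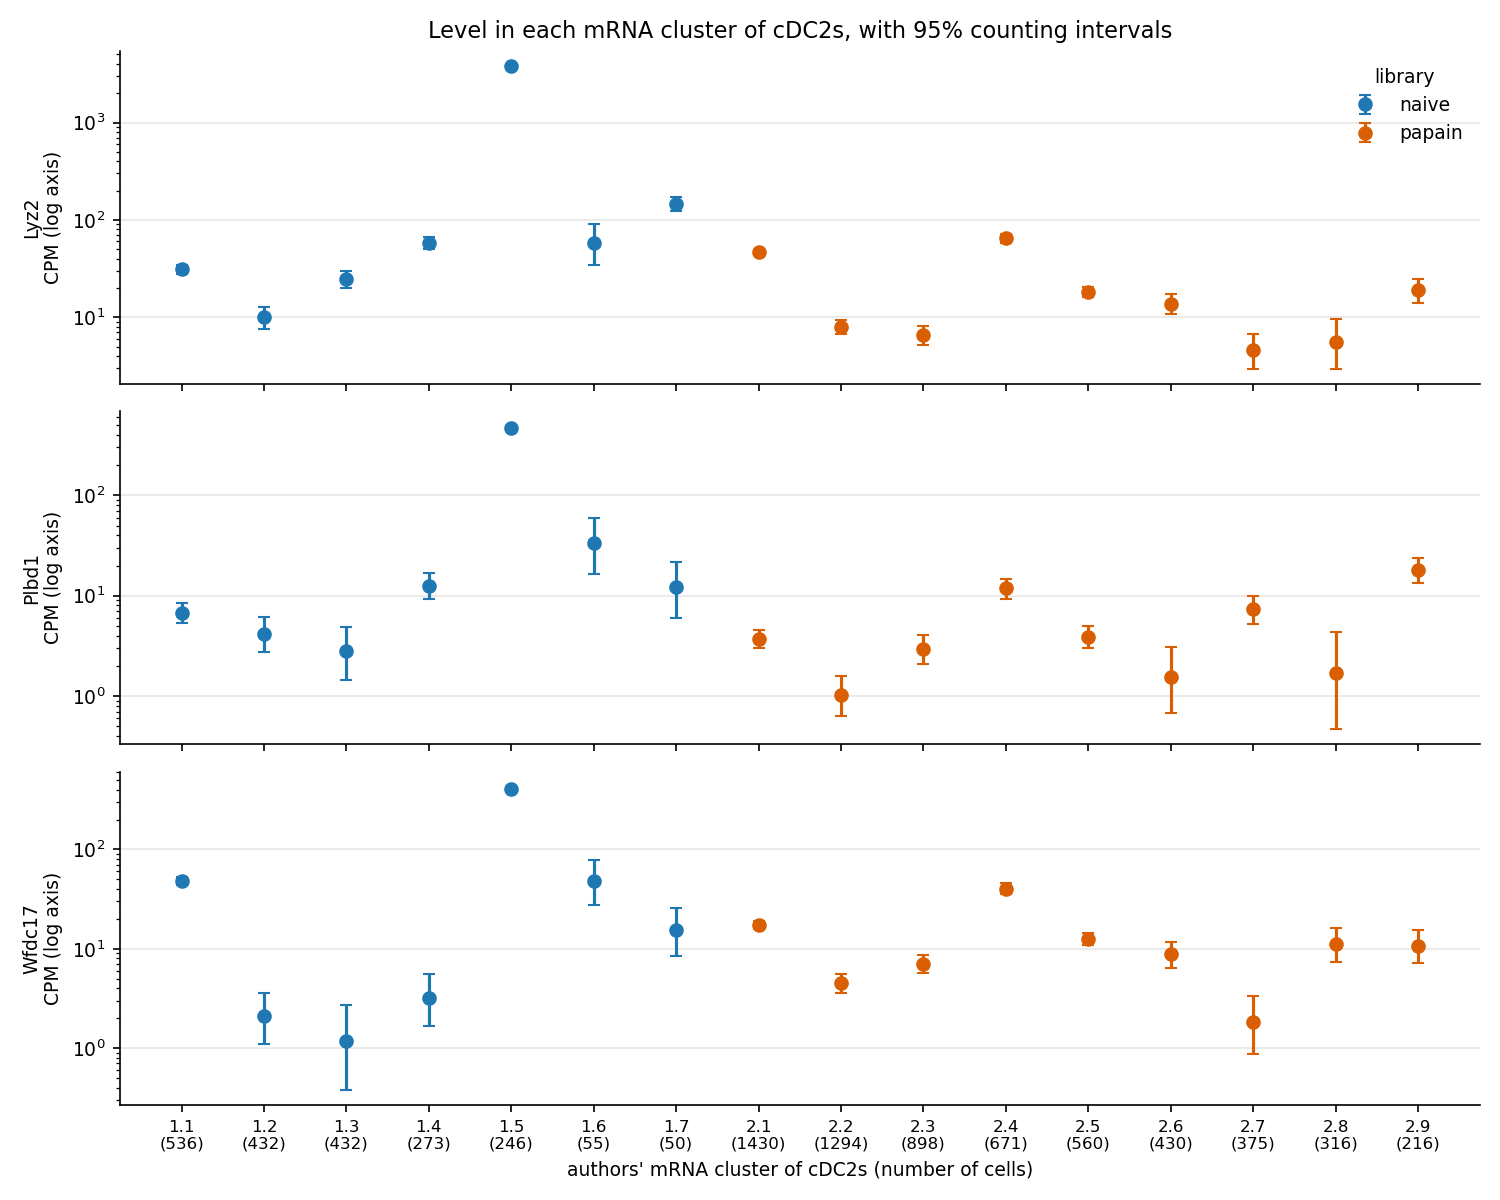
Level of each gene in CPM (log axis) in the authors' mRNA clusters of cDC2s, with the number of cells below each cluster; points are sums over cells and bars are exact 95% Poisson intervals. Naive cluster 1.5 stands at 3763 CPM for *Lyz2*, 466 for *Plbd1* and 406 for *Wfdc17*, above every other cluster of either library.

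Cluster 1.5 made up 21.7% of naive CD301b-lo (143 cells), 9.71% of CD301b-int (64 cells) and 5.52% of CD301b-hi cDC2s (39 cells). It carried 92.5%, 96.9% and 96.8% of the *Lyz2* UMIs of these classes, and 93.5%, 92.8% and 91.1% of those of *Plbd1*. For *Wfdc17* it carried 90.8% and 87.1% in CD301b-lo and CD301b-int cDC2s but 53.2% in CD301b-hi cDC2s. Within the cluster, cells with more surface CD301b held more *Lyz2*, with 2185 CPM (2128 to 2244) in CD301b-lo, 4659.7 (4549 to 4772) in CD301b-int and 6766 (6598 to 6938) in CD301b-hi cells. *Plbd1* followed the same order, with 401 CPM (377 to 427), 509.5 (473 to 548) and 576 (527 to 628), the last 2 with overlapping intervals. *Wfdc17* did not, being highest in CD301b-int cells (611 CPM, 571 to 652), where 416 of the 882 UMIs were in 1 cell.

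In the 39 CD301b-hi cells of the cluster, a *Lyz2* and a *Plbd1* UMI were found in 100% of cells (interval 91.0 to 100%), with medians of 102 and 14 UMIs per cell, and a *Wfdc17* UMI in 89.7%, with a median of 8. In its 143 CD301b-lo cells the shares were 65.0%, 86.7% and 53.8%, with medians of 3, 7 and 1 UMIs. The cluster was thus more uniform for these genes among its CD301b-hi than among its CD301b-lo cells. At least 100 *Lyz2* UMIs were found in 50 cells of the cluster (20.3%), in 1 of the 1778 other naive cDC2s and in 5 of 6190 papain cDC2s. At least 10 *Plbd1* UMIs were found in 113 cells of the cluster (45.9%), in none of the other naive cDC2s and in 2 papain cDC2s.

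**Figure D3:**
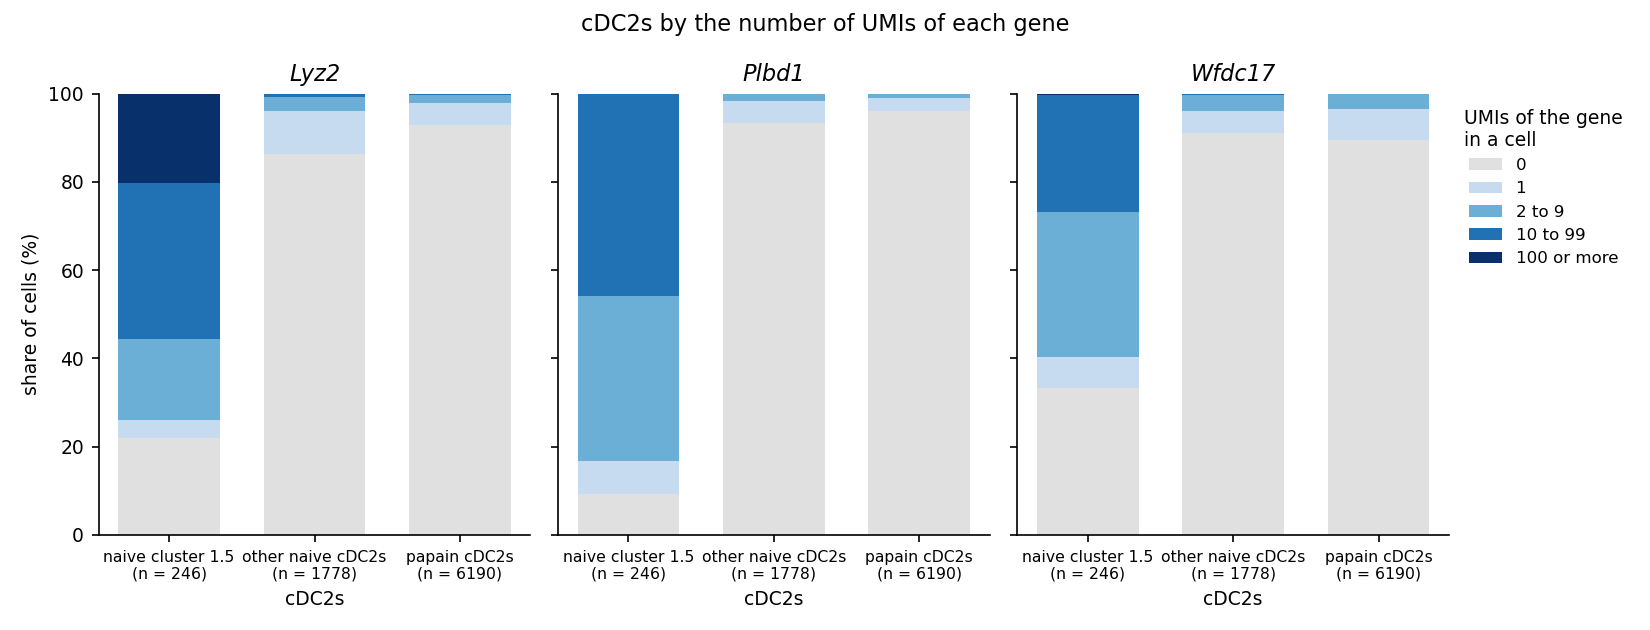
Share of cDC2s (%) by the number of UMIs of each gene in a cell, for naive cluster 1.5, all other naive cDC2s and all papain cDC2s. Cells with 0 UMIs make up 22.0% of cluster 1.5 but 86.3% of other naive and 92.8% of papain cDC2s for *Lyz2*, and 33.3%, 91.0% and 89.4% for *Wfdc17*.

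Without the cells of cluster 1.5, the lower papain levels were smaller or gone. In CD301b-hi cDC2s *Lyz2* then stood at 18.9 CPM (16.4 to 21.7) in naive and 13.7 in papain cells, a log2 ratio of -0.47 (-0.70 to -0.23), *Plbd1* at 4.85 (3.61 to 6.38) and 2.79 (-0.80, -1.27 to -0.31) and *Wfdc17* at 35.6 (32.1 to 39.4) and 10.0 (-1.82, -2.02 to -1.63). *Wfdc17* kept the largest difference there, and its naive level includes the cell with 176 of 374 UMIs. In CD301b-int cDC2s the ratio was -1.63 (-1.91 to -1.36) for *Lyz2*, -1.18 (-1.69 to -0.67) for *Plbd1* and -0.26 (-0.55 to 0.037) for *Wfdc17*. In CD301b-lo cDC2s it was 0.23 (0.080 to 0.39), -0.12 (-0.53 to 0.30) and 0.94 (0.56 to 1.33), so that *Wfdc17* was higher in papain cells. The direction of *Lyz2* there rests on 1 papain cell with 623 UMIs, without which its papain level was 44.99 CPM against 67.6 in naive cells. That naive level also rests in part on 1 cell, which held 137 of 452 UMIs and was not left out. No direction is therefore read for *Lyz2* in this class. *Lyz2* in CD301b-lo cDC2s, at 67.6 CPM in naive cells, was then the one member with at least 50 CPM in any cDC2 class, and was not past 2-fold, as 2.33% of 2746 genes were in the lower and 2.62% in the higher direction. Without the cluster these shares were 2.12% and 2.67% in CD301b-int and 2.66% and 2.29% in CD301b-hi cDC2s.

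**Figure D4:**
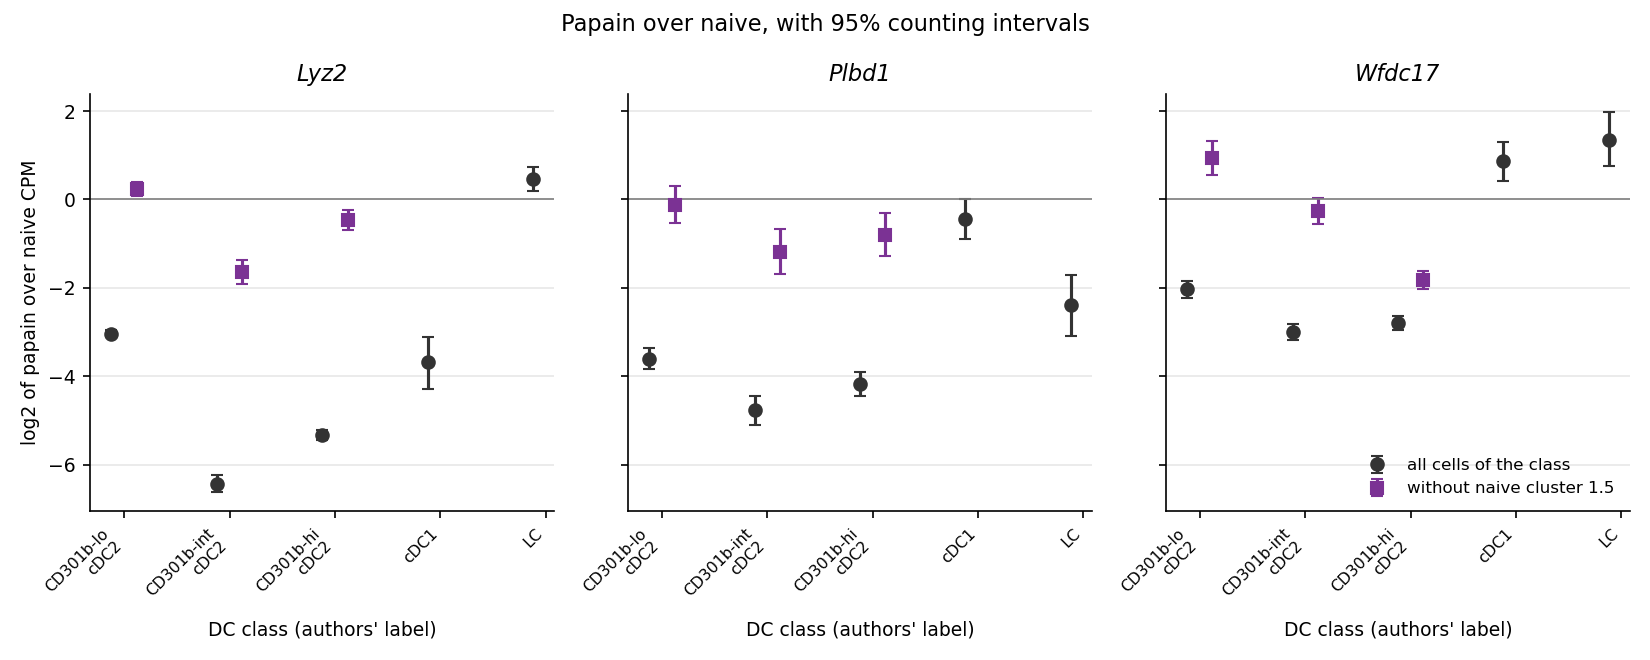
Log2 of papain over naive CPM in each DC class with all cells (black circles) and, for cDC2s, without naive cluster 1.5 (purple squares); bars are exact 95% intervals for the ratio of counts. In CD301b-hi cDC2s *Lyz2* goes from -5.34 to -0.47, *Plbd1* from -4.16 to -0.80 and *Wfdc17* from -2.80 to -1.82.

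Of the 96 genes at least 2-fold lower with all cells, 85 still had 50 CPM without the cluster, and 72 of these were still at least 2-fold lower. *Mgl2* went from -5.54 to 1.08, at levels near 1 CPM, *Gm2a* from -2.55 to -0.54 and *Clec7a* from -2.56 to -1.43.

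Outside cluster 1.5, *Lyz2* in naive cDC2s was compared with cells that should lack it, and the order depended on depth. Cells without a class that held a *Cd3e* or *Trac* UMI, both transcripts of T cells, should lack these genes where they are not conjugates of a T cell and a DC. In the naive library 22 of 237 such cells held a *Lyz2* UMI (9.28%, 5.91 to 13.7%), at a median depth of 7626 UMIs, against 13.7% (12.1 to 15.4%) of the 1778 naive cDC2s outside the cluster, at 13744.5 UMIs. With both thinned to 8392 UMIs, the order turned, with 14.97% of 86 cells with T cell transcripts and 9.16% of 1579 cDC2s. The level was 52.1 CPM in the former, or 35.7 without the cell that held 39 of its 121 UMIs, and 33.2 CPM in the latter. Thinning left out the shallower cells with T cell transcripts, and conjugates among the rest were not told apart, so no background rate is read from it. Whether *Lyz2* in these cDC2s is expression or background was not tested. Of these 1778 cDC2s, 14 held at least 10 *Lyz2* UMIs, and all 14 held 2 or more macrophage and monocyte UMIs. A *Plbd1* UMI was in 2.53% (0.935 to 5.43%) of the cells with T cell transcripts and in 6.69% of those cDC2s, and in 2.87% and 4.19% after thinning. A *Wfdc17* UMI was in 2.11% (0.688 to 4.85%) and 8.999%, and in 4.07% and 5.99% after thinning. The levels were 7.32 and 6.86 CPM for *Plbd1* and 20.7 and 22.0 CPM for *Wfdc17*, 39 of whose 48 UMIs in T cell transcript cells lay in 1 cell. In the papain library, 2 of 241 such cells held a *Lyz2* UMI (0.830%, 0.101 to 2.97%), 3 a *Wfdc17* UMI (1.24%, 0.257 to 3.59%) and 0 a *Plbd1* UMI, which allows a share of up to 1.52%, at a median depth of 6980 UMIs. Thinned to 8392 UMIs, 1.84% of 63 such papain cells and 4.52% of 5671 papain cDC2s held a *Lyz2* UMI, the opposite order to the naive library.

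The 3 genes were found in the same cells. In the naive library, 165 cells held at least 10 *Lyz2* UMIs, of which 137 were in cluster 1.5. A *Plbd1* UMI was found in 89.1% of these 165 cells and in 9.002% of the other naive cells, and a *Wfdc17* UMI in 78.8% and 7.86%. Their median depth was 21448 UMIs against 13623 in the others, and the part of depth in these shares was not tested. All 3 genes were found together in 165 naive cells (5.42%), 150 of them in cluster 1.5, and in 17 papain cells (0.233%). Of 25 papain cells with at least 10 *Lyz2* UMIs, 11 held *Plbd1* (44.0%, against 3.74% of the rest) and 9 held *Wfdc17* (36.0%, against 11.2%).

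Cluster 1.5 also stood apart in genes of DC maturation and, on the surface, in CD11c and CD172a. *Ccr7*, the receptor for migration to the node, stood at 1389 CPM there against 2754 to 5029 in the other naive clusters, and *Fscn1*, which encodes the actin-bundling fascin of mature DCs, at 409.9 against 991 to 3396. *Mgl2* stood at 276 CPM against 0.53 to 33.3, *Cd209a*, a C-type lectin, at 257 against 0 to 21.2, and *Ccr2*, a chemokine receptor, at 219 against 0 to 55.1. mRNA of MHC class II was high, with *H2-Ab1* at 9317 CPM against 527 to 1948. On the surface, the median antibody value, on a natural logarithm scale, was 3.65 for CD11c (1.36 to 2.87 in the other naive clusters), 5.02 for MHCII (4.76 to 5.79), 1.88 for CD172a (1.33 to 1.73), 0.53 for CD301b (0.29 to 1.75) and 0.041 for CD64 (0.034 to 0.057). CD11c and CD172a were above the range of the other naive clusters, and MHCII, CD301b and CD64 lay inside it. The classes were made from these antibodies, so that CD172a is no check of the cDC2 label.

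Macrophage and monocyte markers were high in cluster 1.5 as a sum, but did not move together between the libraries. All 14 listed markers had UMIs in cluster 1.5, and they summed to 903 CPM there, against 30.2 to 248 CPM in the other naive and 27.4 to 177 in the papain clusters. The largest parts were *Plac8* (184 CPM, in 34.1% of the cells), *Apoe*, a lipid carrier (139 CPM, in 9.76%, with 309 of 678 UMIs in 1 cell), *Csf1r*, which encodes the receptor for M-CSF (137 CPM, in 61.4%), and *Cd14* (103 CPM, in 32.1%), while *Fcgr1*, which encodes CD64 of macrophages, was at 1.02 CPM, in 0.41% of the cells. *C1qa* and *C1qb*, subunits of complement C1q, were at 64.5 and 58.7 CPM but in 3.25% and 3.66% of the cells. In the 39 CD301b-hi cells of the cluster, which carried 96.8% of the *Lyz2* UMIs of their class, *C1qb*, *C1qc*, *Fcgr1* and *Vcan* were at 0 UMIs, *C1qa* at 2 and *Ly6c2* at 1, while *Csf1r* was found in 89.7% and *Cd14* in 61.5% of the cells. The one listed neutrophil marker, *Csf3r*, was at 1.64 CPM in cluster 1.5, and B, T, NK and plasmacytoid cell markers summed to 87.6 CPM there against 18.3 to 1083 in the other naive clusters. In papain over naive CD301b-hi cDC2s all 14 were under 50 CPM. Of these markers 5 were at least 2-fold lower, among them *Csf1r* (-2.36) and *Cd14* (-2.22). Another 4 were at least 2-fold higher, *C1qa* (1.05, -0.16 to 2.56), *C1qb* (2.06, 0.11 to 5.16), *Plac8* (1.04, 0.34 to 1.83) and *Fcgr1* (0 and 13 UMIs). Naive UMIs were few, with 6 for *C1qa*, 2 for *C1qb* and 18 for *Plac8*, and *C1qa* did not differ beyond counting error. Of all 15293 genes under 50 CPM, 1840 were at least 2-fold lower and 1419 higher. Leaving out all cells with at least 2 macrophage and monocyte UMIs moved the CD301b-hi ratio to -0.88 for *Lyz2*, -2.04 for *Plbd1* and -1.04 for *Wfdc17*. Of the naive cells with at least 10 *Lyz2* UMIs, 92.1% held 2 or more such UMIs, against 15.5% of the others. In CD301b-lo cDC2s, the same step gave -3.90 for *Lyz2*, -2.66 for *Plbd1* and -0.82 for *Wfdc17*, and in CD301b-int cDC2s -2.94, -3.14 and -0.77. The naive CD301b-hi levels that remained were 18.4, 6.66 and 19.1 CPM. The naive cells with T cell transcripts had 52.1, 7.32 and 20.7 CPM, or 35.7, 3.90 and 3.95 CPM without the highest cell for each gene. The remaining level was thus below both values for *Lyz2*, while for *Plbd1* and *Wfdc17* the order turned on 1 cell. No difference is read from these levels.

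No listed lysosomal gene of at least 50 CPM was 2-fold lower in papain CD301b-hi cDC2s. *Gm2a*, a lysosomal gene that is not on this list, was lower (161 and 27.5 CPM, -2.55). Of 31 listed genes for lysosomal enzymes and membrane proteins, 11 reached 50 CPM in CD301b-hi cDC2s and none was 2-fold lower or higher, with a median log2 ratio of 0.089 against 0.11 over all 2756 genes. *Psap*, which encodes the precursor of the saposins (779 and 433 CPM, -0.85), *Hexa*, a subunit of hexosaminidase (61.5 and 35.4, -0.79), and *Ctsa*, a lysosomal carboxypeptidase (63.2 and 37.3, -0.76), were the lowest, and *Cd63*, a membrane protein of late endosomes (815 and 1192, 0.55), was the highest. Of 21 listed phagocyte surface genes of less mature DCs, 4 were counted and 1 was 2-fold lower, *Clec7a* (141 and 24.0 CPM), where 3.48% of all genes were. Under 50 CPM the same list looked different, since 14 of its other 17 genes were at least 2-fold lower and none was higher. Of the 15 with 5 to 50 CPM 12 were lower, against 4.89% of all 6423 genes at that level and 4 of 18 lysosomal genes. They included *Cd209a* (32.2 and 0.336 CPM, -6.58) and *Ccr2* (35.9 and 0.771 CPM, -5.54), named after their values were seen. The lower limit of 5 CPM was also set after the values were seen. Of 17 listed myeloid transcription factors, 9 were counted and 1 was lower, *Nr4a1* (-1.07). *Klf4*, with 181 and 106 CPM (-0.77), and *Spi1*, which encodes PU.1, with 263 and 298 CPM (0.18), were not past 2-fold. Of 26 mature DC genes, 24 were counted, none was lower, and *Ccl17*, a chemokine (1.02), and *Cd200*, a ligand of an inhibitory receptor (1.29), were higher, where 2.43% of all genes were. Among cDC2 markers 3 were counted and *Mgl2* was lower, while 2 cDC1 markers were counted and neither was past 2-fold. No LC, macrophage, neutrophil or lymphoid marker reached 50 CPM in CD301b-hi cDC2s.

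Close relatives of the 3 genes gave a mixed picture. *Lyz1* had 84.9 CPM (79.0 to 91.0) in naive CD301b-lo, 89.2 (83.5 to 95.2) in CD301b-int and 31.6 (28.4 to 35.0) in CD301b-hi cDC2s, and 0.306 to 1.36 CPM in the papain classes of cDC2s. Cluster 1.5 held 95.8% of its UMIs in naive cDC2s. *Plbd2*, a second phospholipase B domain gene, stood at 30.6 CPM (27.4 to 33.9) in naive and 25.4 (24.0 to 26.8) in papain CD301b-hi cDC2s, a log2 ratio of -0.27 (-0.44 to -0.094). It thus did not share the large difference of *Plbd1*. *Wfdc21*, another WAP domain gene, had 11 UMIs in all naive cells with a class and 50 in all papain ones, 44 of which were in LCs. The other 8 relatives on the list were not analysed here.

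The likeness of the 3 genes over the 16 clusters was measured by Pearson's r of log2(CPM + 1). This r was 0.87 for *Lyz2* and *Plbd1*, 0.77 for *Lyz2* and *Wfdc17* and 0.73 for *Plbd1* and *Wfdc17*, and over the 10 groups of class and library it was 0.84, 0.81 and 0.83. Clusters share their library, and the 1 high cluster weighs on each of these values. Among 4133 genes with at least 50 CPM in a cluster, the 5 most like *Lyz2* were *Lyz1* (0.93), *Gm2a* (0.93), *Dnmt3a* (0.92), *Ccl4* (0.92) and *Clec4b1* (0.91). *Gm2a* had 1259 CPM in cluster 1.5 and at most 132 in any other, and *Ccl4*, a chemokine, 562 and at most 39.4. Those most like *Plbd1* were *Jarid2* (0.94), *Havcr2* (0.93), *Entpd1* (0.93), *Gm2a* (0.93) and *Il1r2* (0.93). *Havcr2*, which encodes TIM-3, had 82.5 CPM in cluster 1.5 and at most 9.09 in any other, and *Entpd1*, which encodes CD39, 55.5 and at most 6.06. Those most like *Wfdc17* were *Cotl1* (0.91), *Mapkapk2* (0.90), *Lipa* (0.89), *5031439G07Rik* (0.89) and *Gpx1* (0.88), and these were less particular to 1 cluster by level, with *Cotl1* at 313 CPM in cluster 1.5 and 259 in papain cluster 2.4. Over the 10 groups of class and library, the 5 most like genes shared 1 with this list for *Lyz2*, 1 for *Plbd1* and 0 for *Wfdc17*, so that the names depend on the grouping.

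**Figure D5:**
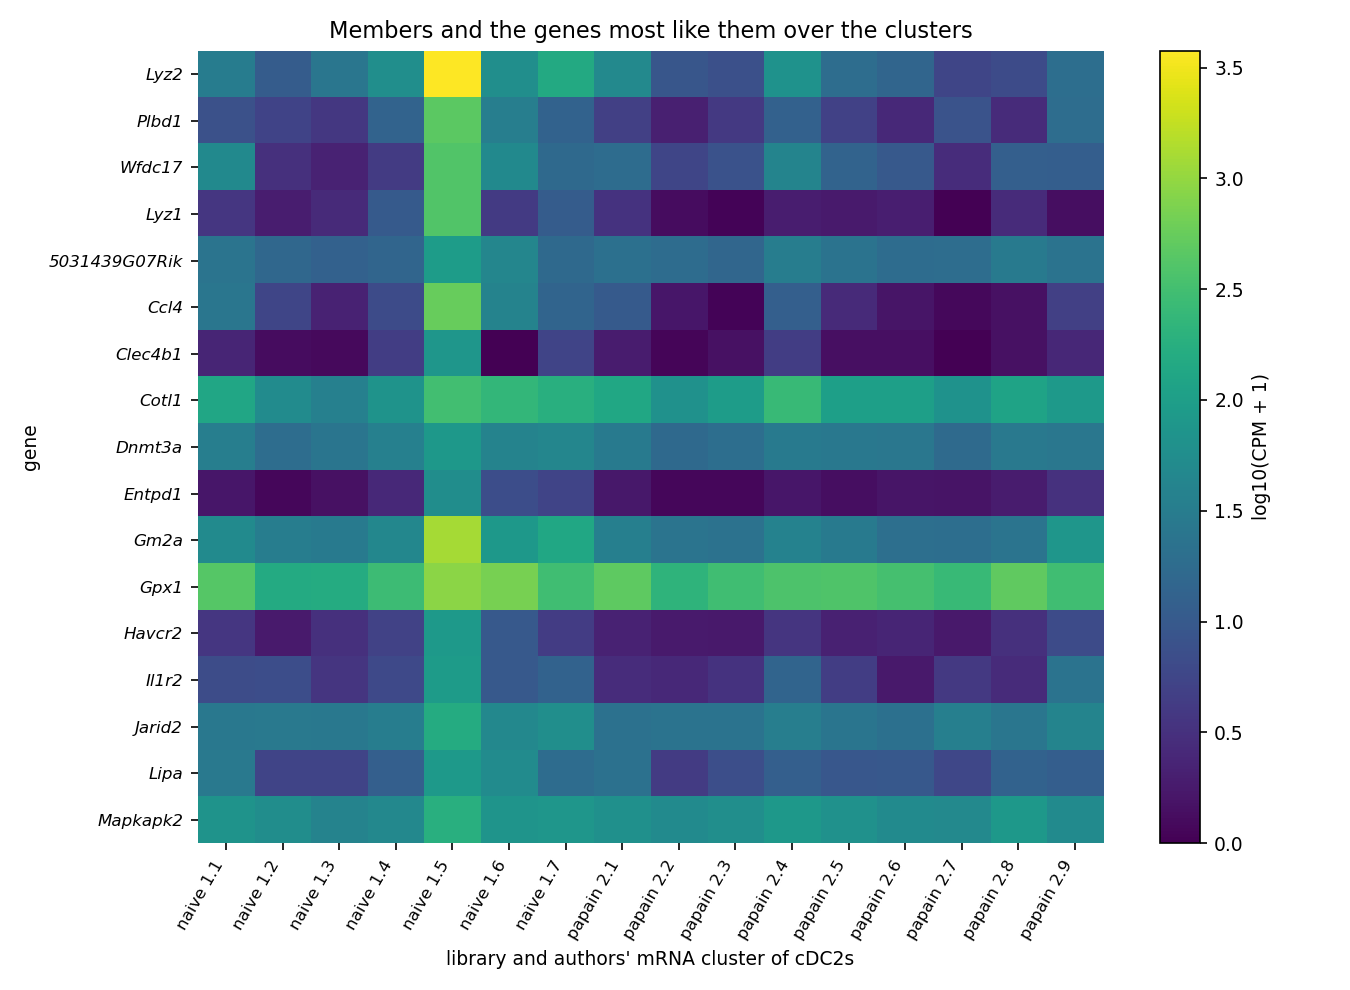
Level (colour, log10 of CPM + 1) of the 3 genes, *Lyz1* and the genes most like each of the 3 over the authors' mRNA clusters of cDC2s, with the 7 naive clusters at the left and the 9 papain clusters at the right. Naive cluster 1.5 is the brightest column for *Lyz2* (3763 CPM), *Gm2a* (1259 CPM) and *Ccl4* (562 CPM), while *Gpx1* (154 to 898 CPM) is bright in every column.

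In cDC1s and LCs some values rested on few cells. Of the 1025 naive *Lyz2* UMIs in cDC1s, 397 were in 1 of 578 cells, and of the 117 naive *Wfdc17* UMIs there 44 were in 1 cell. Without the 1% highest cells of each class, the log2 ratio in cDC1s was -2.75 for *Lyz2*, -1.04 for *Plbd1* and 3.43 for *Wfdc17*, and in LCs it was -0.42, -1.34 and 2.57. *Lyz2* thus changed its direction in LCs, while the higher level of *Wfdc17* in papain cDC1s and LCs became larger. *Wfdc17* in the papain library was spread over 30 of 235 cDC1s and 141 of 881 LCs, with at most 10 and 14 UMIs in a cell. Of cDC1s, 3.46% of naive and 12.8% of papain cells held a *Wfdc17* UMI, and of LCs 2.73% and 16.004% did. With cells thinned to 8392 UMIs these shares were 2.16% and 10.6% in cDC1s and 2.44% and 8.25% in LCs. At the same depth, 4.07% of 86 naive and 1.16% of 63 papain cells with T cell transcripts held a *Wfdc17* UMI. After thinning, the naive shares of both classes thus lay below that of the naive cells with T cell transcripts. Without thinning they lay above it, at 3.46% and 2.73% against 2.11% (0.688 to 4.85%) of 237 cells. The order thus depended on depth, and no difference is read from it.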

How the data were processed

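The authors sequenced 2 CITEseq libraries and, per the labels' processing notes, used Cell Ranger 3.0.1, Partek and mm10. The deposited expression values are log2(CPM + 1) for each cell and gene, scaled by the authors before some genes were left out. Beside them stand the authors' class and mRNA cluster of each cell, a deposited count of expressed genes, a mitochondrial percent and a cell total, which is a sum of log2 values and was treated as a score. The cell total was not used. The deposited antibody values, made by the authors, are on a natural logarithm scale relative to the geometric mean of the 12 antibodies in a cell.

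UMIs were recovered from the log2 values, and 100% of those up to 50 UMIs came out whole within 0.02. Summed UMIs gave CPM with exact Poisson intervals, shares with Clopper-Pearson intervals and ratios with exact conditional binomial intervals, all at 95% and for counting error only. Ratios were ranked among genes of at least 50 CPM in the higher library, and 2-fold was the threshold for counting. To compare shares, cells were thinned to 8392 UMIs, the percentile 10 of depth. No doublet caller was run, so that only the authors' sort gate bears on doublets. Likeness was Pearson's r over clusters of at least 50 cDC2s, and the 5 most like genes were named for each member. From each list, up to 3 genes with the lowest and highest ratios were named, besides genes needed as background. *Clec7a* and *Gm2a* are named as the next ranks, and genes described in cluster 1.5 were chosen after that cluster was seen. Genes and lists were chosen with earlier results of these data known. Python 3.11.15 with numpy 2.4.6, scipy 1.17.1, pandas 2.3.3 and matplotlib 3.10.9 was used, and the steps were tested on simulated data. Alternatives are given at the end.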

Additional observations from a re-analysis of the deposited data

Results flagged for a closer look

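In 3 cases the papain over naive log2 ratio ran in the opposite direction to all 3 cDC2 classes, where *Lyz2* and *Wfdc17* were lower in papain cells. *Lyz2* in LCs was at 0.47, from 26.5 to 36.6 CPM, with 310 of its 672 papain UMIs in 1 cell. *Wfdc17* was at 0.87 in cDC1s, from 12.3 to 22.5 CPM, and at 1.33 in LCs, from 5.08 to 12.8 CPM. The difference between these classes and cDC2s was not tested, because each condition is 1 library.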

How the results depend on the processing

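No paired analysis was possible because each condition is 1 library, and for the same reason no replicate could be left out. In CD301b-hi cDC2s the log2 ratio of *Lyz2* (-5.34) was -4.57 with a pseudocount of 10 CPM, -4.97 for the mean of the CPM of each cell, -5.01 without the deepest 5% of cells, -5.46 without the 1% highest cells, -4.97 with CD301b tertiles set over both libraries and -0.88 without cells with 2 or more macrophage and monocyte UMIs. For *Plbd1* (-4.16) it was -3.75 with a pseudocount of 1 and -2.23 with 10 CPM, and then, in the same order but without the tertiles, -3.82, -3.89, -5.12 and -2.04. For *Wfdc17* (-2.80) it was -1.996 with a pseudocount of 10 CPM, -2.39, -2.50, -2.29, -3.02 with tertiles and -1.04 without the cells with macrophage and monocyte UMIs. The median of the 5 classes was -3.67 for *Lyz2*, and -2.88 with a pseudocount of 10 CPM, -2.77 without the deepest cells, -5.46 without the 1% highest and -1.34 without macrophage and monocyte UMIs. It was -3.60 for *Plbd1*, and -2.23 with that pseudocount, -3.30 for the mean over cells, -4.04 without the 1% highest and -2.66 without macrophage and monocyte UMIs. It was -2.04 for *Wfdc17*, and -1.61, -1.69, -2.29 and -0.77 under the same alternatives. Leaving out naive cluster 1.5, which was chosen after seeing the data, gave -0.47 for *Lyz2*, -0.80 for *Plbd1* and -1.82 for *Wfdc17* in CD301b-hi cDC2s, medians of -0.47 and -0.80 for *Lyz2* and *Plbd1*, and turned the median of *Wfdc17* to 0.87. Adding *Lyz1* to *Lyz2*, also chosen after seeing the data, gave -5.28. Counting cells with at least 2 UMIs lowered all 30 shares of cells with a UMI, and thinning moved 18 of the 30 by more than their interval. The 5 genes most like each member shared 1, 1 and 0 genes with those found over class and library. In all, 32 alternative values of these 6 results moved by less than their counting interval, 35 moved by more and 1 reversed. The cause of these changes was not tested, beyond the cells each alternative leaves out. The median log2 ratio of all genes of at least 10 CPM was 0.036 to 0.096 by class. Levels near 1 CPM and shares near those of cells with T cell transcripts are at the limit of this depth.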
